A study of Rattus norvegicus with 8 samples.

Results

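Rat neurons that received the antioxidant CAT-SKL before amyloid-beta oligomers (CAT-SKL+ADDL) were compared with neurons that received the oligomers alone (ADDL), to ask what the earlier CAT-SKL changes. The comparison was the difference of group means of log2(Cy5/Cy3) between the 2 arrays of each group. It drew on 4 of the 8 arrays of the series and on 25213 of 30367 probes, those above background. The cultures were primary cortical and hippocampal neurons of Sprague Dawley rat embryos at embryonic day 18, kept for 7 days in vitro and exposed to the agents after that. CAT-SKL+ADDL neurons had 1 µM CAT-SKL for 24 h and then 1 µM ADDL for another 24 h. ADDL neurons had only 1 µM ADDL for 24 h. Neurons given the agents in the opposite order (ADDL+CAT-SKL) and neurons given only 1 µM CAT-SKL for 24 h (CAT-SKL) made up the other 4 arrays. Each array set treated RNA in Cy5 against RNA of vehicle-treated neurons in Cy3, without a dye swap. A normalised log2 ratio above 0 is called above vehicle here, but any dye bias of a probe stays in that ratio. In the difference between groups, vehicle and dye bias drop out if they are alike on all arrays.

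ADDL, or amyloid-beta derived diffusible ligands, are soluble oligomers of amyloid-beta, the peptide found in the plaques of Alzheimer's disease, and they bind at synapses and disturb synaptic function. Catalase breaks down hydrogen peroxide inside peroxisomes, and the receptor Pex5 recognises a short tail on the enzyme and carries it into the organelle. CAT-SKL is a recombinant catalase with a stronger form of that tail, Ser-Lys-Leu, made to enter cells and reach peroxisomes.

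The 4 arrays lay on 1 slide with the others. ADDL arrays and CAT-SKL+ADDL arrays occupied different rows, and the CAT-SKL+ADDL neurons were exposed for 48 h in all, so neither row nor total exposure can be told apart from the earlier CAT-SKL. Median Cy5 signals were 123 and 124 on the CAT-SKL+ADDL arrays and 100 and 97 on the ADDL arrays, over backgrounds of 24 to 26. All 15 pan-neuronal markers represented on the arrays were well above background in both groups. The design text calls the arrays of a group biological replicates, but between the CAT-SKL+ADDL pair there was no more difference than duplicate spots of 1 array show. Over 13221 probes spotted in duplicate, this pair had an SD of 0.0855 (log2), and spot noise alone accounts for 0.0848, whereas the ADDL pair differed by 1.80 times its spot noise. The other 27 pairs of arrays differed by 1.35 to 2.42 times their spot noise. For this reason the mean of the CAT-SKL+ADDL pair entered as 1 sample against 2 ADDL samples, with the spread taken from the 7 samples of all 4 groups. The spread of that single sample is assumed to equal that of the other groups, and the p-values measure only the spread between these samples. All errors below are standard errors of limma on this basis.

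Over all tested probes, the CAT-SKL+ADDL arrays were closest to each other (SD of the difference 0.0979). Their distances to the CAT-SKL arrays were 0.118 to 0.140. Their distances were 0.187 to 0.189 to ADDL 1 and 0.138 to 0.139 to ADDL 2, so one ADDL array was as near to them as CAT-SKL 2 and the other was farther. The ADDL arrays were 0.160 apart, farther than the CAT-SKL+ADDL arrays, and ADDL 1 was the more distant of them.

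**Figure D1:**
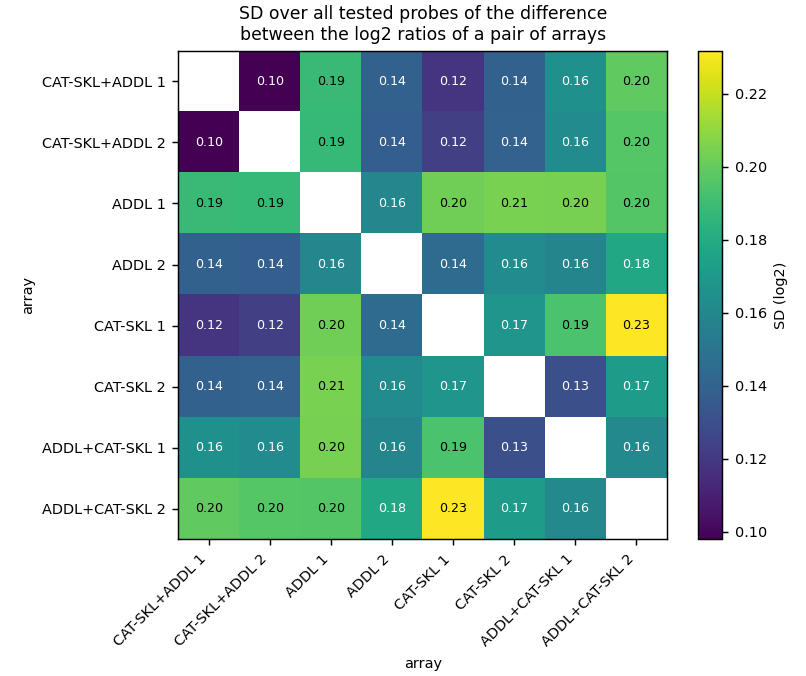
Standard deviation, over all tested probes, of the difference between the log2 ratios to vehicle of each pair of the 8 arrays. Rows and columns are arrays, darker cells are closer pairs (log2), and the CAT-SKL+ADDL pair (0.10) is the closest of all.

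No probe passed the threshold between CAT-SKL+ADDL and ADDL (limma, adjusted p = 1.00 for every probe, 0 of 25213). An unadjusted p below 0.05 was reached by 962 probes (3.82%). The median absolute difference was 0.0759 on the log2 scale, below the median standard error of 0.110. The 95% confidence interval of a probe had a median half-width of 0.25, so differences of that size were within the error for a typical probe. A difference of at least 1.5-fold was measured for 63 probes (0.250%), 15 higher and 48 lower, and a difference of at least 2-fold for 1 unnamed probe (-1.04). Read at the brightest tested probe of each of 12880 named genes, both CAT-SKL+ADDL arrays lay above both ADDL arrays for 3162 genes (24.5%) and below them for 3060 (23.8%). Unadjusted p-values below 0.05 were found for 427 of these genes (3.32%). Because the CAT-SKL+ADDL pair counts as 1 sample, counts of both arrays show only 1 sample outside the range of 2 ADDL samples. The counts of list members below are read beside these shares, and none of the differences below passed the threshold.

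**Figure D2:**
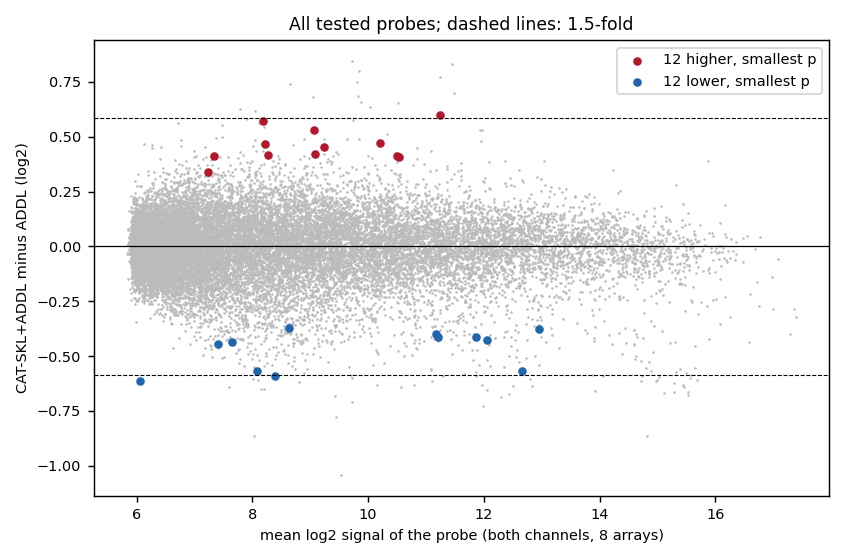
Difference of log2 ratios, CAT-SKL+ADDL minus ADDL, against the mean log2 signal of the probe over both channels and all 8 arrays, for all 25213 tested probes. Red and blue points are the 12 higher and 12 lower named genes with the smallest p among those whose groups did not overlap. Dashed lines mark 1.5-fold, and 63 probes lie on or beyond them.

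The 24 genes named for the smallest p with arrays that did not overlap, 12 in each direction, differed by small amounts. Septin7, a septin that forms filaments under the membrane, had log2 ratios of 0.39 and 0.43 on the CAT-SKL+ADDL arrays, against -0.21 and -0.16 on the ADDL arrays (difference 0.60 ± 0.15, 1.51-fold, 95% interval 0.26 to 0.93). Trappc2, part of a complex that tethers vesicles, had 0.49 and 0.42 on the CAT-SKL+ADDL arrays, against -0.15 and -0.0037 on the ADDL arrays (0.53 ± 0.10). Both genes were above vehicle on the CAT-SKL+ADDL arrays and at or below it on the ADDL arrays. On the CAT-SKL arrays Septin7 had 0.36 and 0.19 and Trappc2 had 0.30 and 0.36. Cfl2, a cofilin that severs actin filaments, had 0.09 and 0.14 on the CAT-SKL+ADDL arrays, against -0.29 and -0.31 on the ADDL arrays (0.42 ± 0.09). Its other probe, which was brighter, gave 0.26.

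Srxn1, sulfiredoxin, which repairs over-oxidised peroxiredoxins, had 0.07 and 0.12 on the CAT-SKL+ADDL arrays, against -0.36 and -0.27 on the ADDL arrays (0.41 ± 0.11, unadjusted p = 0.00470 in limma). Oxr1, an oxidation resistance gene, had 0.04 and -0.01 on the CAT-SKL+ADDL arrays, against -0.45 and -0.34 on the ADDL arrays (0.41 ± 0.10, unadjusted p = 0.00264 in limma). For both genes the CAT-SKL+ADDL arrays lay near vehicle and the ADDL arrays below it. Calb1, the calcium-binding protein calbindin of some inhibitory neurons, had 0.35 and 0.36 on the CAT-SKL+ADDL arrays, against -0.31 and -0.12 on the ADDL arrays (0.57 ± 0.15). The other higher genes were Omg (0.47), the oligodendrocyte myelin glycoprotein gene, Clic1 (0.47), an intracellular chloride channel gene, Rsl24d1 (0.45), of ribosome assembly, Uap1 (0.42, other probe 0.26), of amino sugar synthesis, Camkmt (0.41), which methylates calmodulin, and Bbs10 (0.34), a chaperonin-like gene of cilia. In all 12 the ranges of the groups did not overlap, as the choice of these genes fixed.

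Srxn1 is printed below because its promoter holds the AP-1 motif, and Ucn, the corticotropin-releasing factor relative urocortin, because its promoter holds the cAMP response element and it was among the largest named differences. Each sequence is the 250 bases before the annotated start on the plus strand, from RefSeq (GRCr8), with the motif in capitals. Srxn1 lies at chr3:161064562-161064811 and Ucn at chr6:30957836-30958085.
Srxn1: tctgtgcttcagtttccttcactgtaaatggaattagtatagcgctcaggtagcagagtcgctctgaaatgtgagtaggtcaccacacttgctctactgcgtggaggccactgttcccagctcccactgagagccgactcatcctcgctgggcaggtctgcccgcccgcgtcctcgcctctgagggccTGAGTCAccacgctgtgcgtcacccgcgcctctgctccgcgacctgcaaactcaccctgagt
Ucn: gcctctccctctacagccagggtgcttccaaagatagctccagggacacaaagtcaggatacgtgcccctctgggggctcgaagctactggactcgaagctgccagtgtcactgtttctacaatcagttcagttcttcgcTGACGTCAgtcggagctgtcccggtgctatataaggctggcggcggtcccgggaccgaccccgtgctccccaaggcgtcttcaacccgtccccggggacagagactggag

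The motifs were searched as TGAGTCA (AP-1) and TGACGTCA (cAMP response element) on both strands; neither contains the other. AP-1 was found in 1354 of 33469 promoters of this length (4.05%) and the cAMP response element in 531 (1.59%). Of the 24 named genes, 20 had a promoter in the table, 2 of them with AP-1 and 0 with the cAMP response element. Ucn, named after its values were seen, had 0.19 and 0.14 on the CAT-SKL+ADDL arrays, against -0.67 and -0.66 on the ADDL arrays (0.83 ± 0.27, 1.78-fold). It was above vehicle on both CAT-SKL+ADDL arrays and below it on both ADDL arrays, while the CAT-SKL arrays gave -0.15 and 0.63. A match of letters in a promoter is a description only.

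Among the 12 lower genes, Il6st, the gp130 receptor subunit shared by interleukin-6 type cytokines, had -0.41 and -0.26 on the CAT-SKL+ADDL arrays, against 0.23 and 0.24 on the ADDL arrays (-0.57 ± 0.10, unadjusted p = 4.49e-04 in limma). Nfix, a nuclear factor I gene of neural development, had -0.48 on each CAT-SKL+ADDL array, against 0.06 and 0.11 on the ADDL arrays (-0.57 ± 0.12), and its other probe gave -0.50. Irf3, a transcription factor of the antiviral response, had -0.28 and -0.33 on the CAT-SKL+ADDL arrays, against 0.10 on each ADDL array (-0.40 ± 0.09). All 3 were below vehicle on the CAT-SKL+ADDL arrays and above it on the ADDL arrays. On the CAT-SKL arrays Il6st had -0.15 and -0.25, Nfix -0.41 and -0.28 and Irf3 -0.18 and -0.16.

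The developmental transcription factor genes Tcf4 (-0.43) and Foxp1 (-0.41) had -0.45 to -0.42 and -0.49 to -0.46 on the CAT-SKL+ADDL arrays, against -0.10 to 0.08 and -0.10 to -0.03 on the ADDL arrays. Usp40, of the deubiquitinase family, differed by -0.59, and its other probe by -0.18. The remaining lower genes were Lmbr1l (-0.44), Etaa1 (-0.43), which acts in replication stress and whose other probes gave -0.12 and -0.0048, Slc25a28 (-0.41, other probe -0.32), a mitochondrial iron carrier, Mapre2 (-0.38), which binds microtubule ends, and the deacetylase gene Hdac10 (-0.37). Xpnpep2, an aminopeptidase gene with the smallest p of all (1.10e-04 unadjusted in limma), rested on 1 array. It had -0.06 and -1.25 on the CAT-SKL+ADDL arrays, against -0.03 and -0.05 on the ADDL arrays (-0.61 ± 0.09). It was well above background on only 1 of the ADDL arrays, and with the Cy5 channel alone its difference was 0.0078. Sfxn1, a mitochondrial serine transporter gene named after its values were seen, was likewise at 0.06 and -1.63 on the CAT-SKL+ADDL arrays, against -0.17 and 0.02 on the ADDL arrays. Only 5 probes differed by more than 0.8 between the CAT-SKL+ADDL arrays, all of them lower on the second. Without the first CAT-SKL+ADDL array, 3 of them passed (Xpnpep2, Sfxn1 and 1 unnamed probe, smallest adjusted p = 0.0163 in limma).

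**Figure D3:**
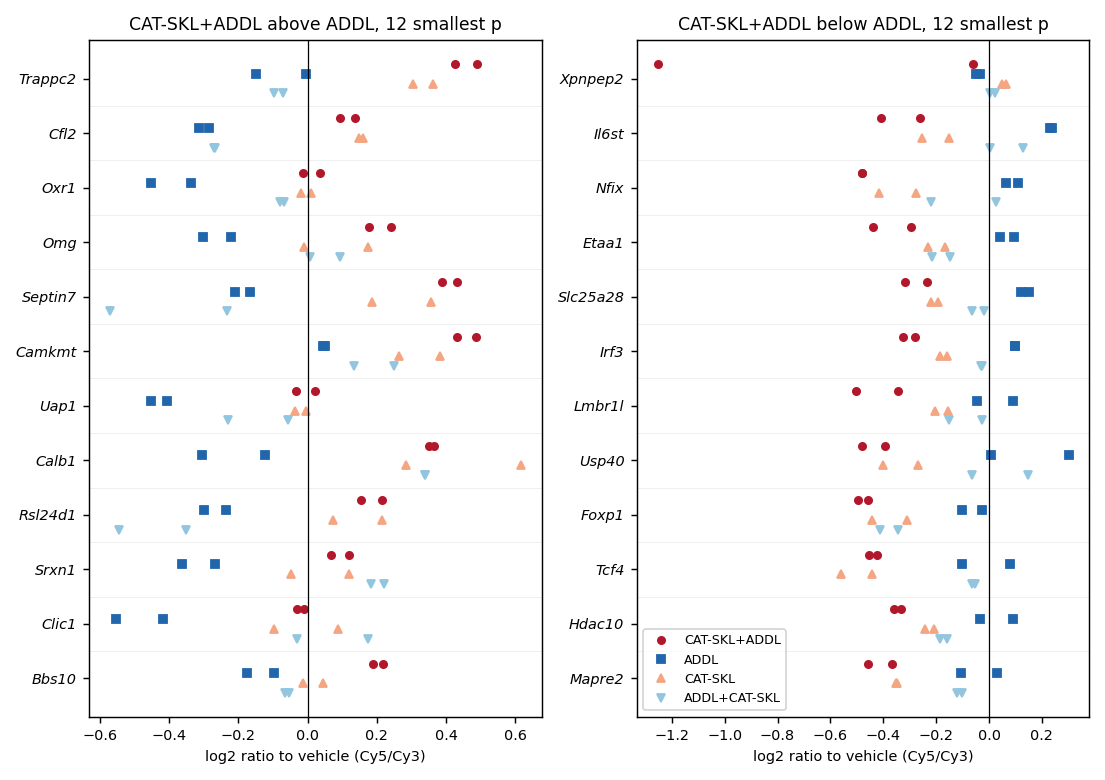
Log2 ratio to vehicle on each array for the 24 named genes with the smallest p among those whose groups did not overlap. On the left are 12 with CAT-SKL+ADDL above ADDL and on the right 12 below. Circles are CAT-SKL+ADDL, squares ADDL, upward triangles CAT-SKL and downward triangles ADDL+CAT-SKL, with 2 arrays each; Xpnpep2 is near 0 on one CAT-SKL+ADDL array and at -1.25 on the other.

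The genes closest to the action of CAT-SKL were those that remove peroxide and superoxide. Of 22 tested, 13 were above both ADDL arrays on both CAT-SKL+ADDL arrays and 1 was below, beside 24.5% and 23.8% of all named genes, and the median difference was 0.10. Over 20 alternative settings of the analysis this median was 0.06 to 0.28, highest when loess was replaced by centring each array on its median. Their medians were 0.10 and 0.08 on the CAT-SKL+ADDL arrays, against -0.05 and -0.02 on the ADDL arrays. Prdx1, the main cytosolic peroxiredoxin, had 0.22 and 0.32 on the CAT-SKL+ADDL arrays, against -0.32 and -0.02 on the ADDL arrays (0.43 ± 0.15, unadjusted p = 0.0170 in limma). Its lower ADDL value came from ADDL 1, and the ADDL arrays were farther apart than the groups were at their nearest. Txn2, the mitochondrial thioredoxin, had 0.10 and 0.09 on the CAT-SKL+ADDL arrays, against -0.15 and -0.06 on the ADDL arrays (0.20 ± 0.09). Gpx7, a peroxidase of the endoplasmic reticulum, had 0.15 and 0.31 on the CAT-SKL+ADDL arrays, against -0.04 and 0.05 on the ADDL arrays (0.23 ± 0.13).

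The endogenous catalase gene Cat was not shown to differ. It had -0.05 and -0.15 on the CAT-SKL+ADDL arrays, against -0.48 and -0.03 on the ADDL arrays (0.15 ± 0.16, 95% interval -0.22 to 0.53), and the difference was -0.07 without ADDL 1. The delivered protein has no message, so this probe reads only the transcript of the neurons. Gpx1, the cytosolic glutathione peroxidase, was the only member below both ADDL arrays on both CAT-SKL+ADDL arrays, at 0.15 and 0.14 against 0.24 and 0.30 (-0.13 ± 0.11). The superoxide dismutase genes Sod1 (-0.02) and Sod2 (-0.09) overlapped between the groups.

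Targets of NRF2, the transcription factor of the antioxidant response, had a median difference of 0.01 over 22 genes (-0.03 without ADDL 1). On both arrays 6 were above and 4 below, beside 24.5% and 23.8% of all named genes. Hmox1, which degrades haem, had 0.53 and 0.54 on the CAT-SKL+ADDL arrays, against 0.40 and 0.75 on the ADDL arrays (-0.04 ± 0.19). Its ADDL arrays lay on either side of the CAT-SKL+ADDL arrays, and without ADDL 2 the difference was 0.14. Nqo1, a quinone reductase, had 0.48 and 0.40 on the CAT-SKL+ADDL arrays, against -0.08 and 0.36 on the ADDL arrays (0.30 ± 0.26). Genes of NADPH oxidase, which makes superoxide, had a median difference of 0.0017 over 10 genes (-0.06 with arrays centred on their median), with 3 above and 1 below on both arrays.

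Genes of peroxisome import and peroxisomal enzymes had a median difference of 0.03 over 32 genes (0.0043 to 0.14 over the alternatives), with 8 above and 3 below on both arrays. Of all named genes 24.5% were above, near the share in this list, and 23.8% were below. Pex5, the import receptor, had -0.18 and -0.17 on the CAT-SKL+ADDL arrays, against -0.13 and -0.31 on the ADDL arrays (0.04 ± 0.12, 95% interval -0.23 to 0.32; -0.05 without ADDL 2). Pex2, a membrane ligase of the import machinery, had 0.32 and 0.33 on the CAT-SKL+ADDL arrays, against 0.04 and 0.15 on the ADDL arrays (0.23 ± 0.10, unadjusted p = 0.0604 in limma). Abcd3, a peroxisomal membrane transporter, had -0.11 and -0.08 on the CAT-SKL+ADDL arrays, against -1.32 and 0.07 on the ADDL arrays, so its difference of 0.53 ± 0.43 came from ADDL 1 and was -0.16 without that array.

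Of 25 tested genes of the unfolded protein and integrated stress response, 11 were below both ADDL arrays on both CAT-SKL+ADDL arrays and 4 were above. Over all named genes these shares were 23.8% and 24.5%. The median difference was -0.10, or 0.07 with arrays centred on their median. Trib3, a pseudokinase induced by ATF4, had -0.38 and -0.36 on the CAT-SKL+ADDL arrays, against -0.06 and -0.04 on the ADDL arrays (-0.31 ± 0.09, unadjusted p = 0.00880 in limma). Atf5, a transcription factor of the same branch, had -0.08 on each CAT-SKL+ADDL array, against 0.18 and 0.24 on the ADDL arrays (-0.30 ± 0.12). Ppp1r15a, which reverses the phosphorylation of eIF2 alpha, had -0.38 and -0.35 on the CAT-SKL+ADDL arrays, against 0.06 and -0.09 on the ADDL arrays (-0.35 ± 0.15). In these 3 genes the groups did not overlap, which choosing them by smallest p favoured. Ddit3, or CHOP, had -0.02 and -0.01 on the CAT-SKL+ADDL arrays, against 0.37 and 0.09 on the ADDL arrays (-0.25 ± 0.14), and Hspa5, the chaperone BiP, overlapped (-0.14 ± 0.17). For Ddit3, Hspa5, Herpud1 and Sdf2l1, ADDL 1 was the highest of the 4 arrays.

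Cytosolic heat shock chaperones had a median difference of 0.07 over 19 genes (0.03 to 0.27 over the alternatives). On both arrays 7 were above and 3 below, beside 24.5% and 23.8% of all named genes. Bag3, a co-chaperone of selective autophagy, had 0.30 and 0.27 on the CAT-SKL+ADDL arrays, against -0.06 and -0.03 on the ADDL arrays (0.33 ± 0.10). Cryab, a small heat shock protein, had -0.09 and -0.07 on the CAT-SKL+ADDL arrays, against -0.96 and -0.74 on the ADDL arrays (0.77 ± 0.39, 1.71-fold). Its error was wide because the arrays of the CAT-SKL group gave -0.75 and 0.49. Targets of p53 and apoptosis genes had a median difference of -0.05 over 24 genes (0.07 with arrays centred on their median, 0.012 with Cy5 alone and 0.0035 without ADDL 2). Cdkn1a, the cell cycle inhibitor p21, had -0.30 and -0.32 on the CAT-SKL+ADDL arrays, against 0.03 and -0.05 on the ADDL arrays (-0.30 ± 0.12); its other probe gave -0.17, and Cy5 alone gave 0.02.

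Among genes that respond to neuronal activity, immediate early transcription factors had a median difference of 0.02 over 21 genes (0.0028 to 0.21 over the alternatives), with 7 above and 4 below on both arrays. Fos had 0.27 and 0.30 on the CAT-SKL+ADDL arrays, against 0.22 and 0.05 on the ADDL arrays (0.15 ± 0.11, 95% interval -0.09 to 0.39). Arc, which acts at synapses, had -0.39 on each CAT-SKL+ADDL array, against -0.40 and -0.48 on the ADDL arrays (0.05 ± 0.21; -0.01 with Cy5 alone). Activity-regulated effectors had a median difference of 0.12 over 24 genes (0.07 to 0.33 over the alternatives). On both arrays 14 were above and 1 below, beside 24.5% and 23.8% of all named genes. The difference between these lists was not tested. Their medians were -0.16 and -0.14 on the CAT-SKL+ADDL arrays, against -0.33 and -0.32 on the ADDL arrays, so all 4 arrays lay below vehicle and the ADDL arrays farther. On the CAT-SKL arrays the median was -0.40 and 0.0059, a wider gap than that between the groups.

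Crem, a cAMP-responsive modulator, had -0.10 and -0.14 on the CAT-SKL+ADDL arrays, against -0.54 and -0.51 on the ADDL arrays (0.41 ± 0.15), and its 4 other probes gave 0.26 to 0.36. The growth factor gene Bdnf had -0.06 and -0.05 on the CAT-SKL+ADDL arrays, against -0.31 and -0.32 on the ADDL arrays (0.26 ± 0.15). Scg2, a secretogranin, had 0.05 and 0.03 on the CAT-SKL+ADDL arrays, against -0.30 and -0.31 on the ADDL arrays (0.35 ± 0.19). In each of these genes both arrays of a group agreed to within 0.05. For the CAT-SKL+ADDL pair this shows no reproducibility, since that pair differed by no more than spot noise over all probes. The CAT-SKL arrays were farther apart, at -0.40 and -0.03 for Crem, -0.28 and 0.11 for Bdnf and -0.27 and 0.29 for Scg2.

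Neuropeptides and granins had a median difference of 0.12 over 21 genes (0.10 to 0.33 over the alternatives). On both arrays 11 were above and 1 below, beside 24.5% and 23.8% of all named genes. An unadjusted p below 0.05 in limma was found for 4, beside 3.32% of all named genes. Penk, the precursor of enkephalins, had 0.46 and 0.43 on the CAT-SKL+ADDL arrays, against -0.23 and -0.38 on the ADDL arrays (0.75 ± 0.32, 1.68-fold). Pdyn, the precursor of dynorphins, had 0.17 and 0.33 on the CAT-SKL+ADDL arrays, against -0.37 on each ADDL array (0.62 ± 0.26). Crhbp, which binds corticotropin-releasing hormone, had 0.37 and 0.29 on the CAT-SKL+ADDL arrays, against -0.27 and -0.24 on the ADDL arrays (0.58 ± 0.24). All 3 were above vehicle on both CAT-SKL+ADDL arrays and below it on both ADDL arrays. Cartpt, another peptide precursor, was above vehicle on all 4 arrays, at 0.54 and 0.56 on the CAT-SKL+ADDL arrays, against 0.29 and 0.06 on the ADDL arrays (0.38 ± 0.12). On the CAT-SKL arrays Penk, Pdyn and Crhbp were not alike in both samples, as with Pdyn at -0.28 and 0.50.

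Of 23 tested presynaptic release genes, 13 were below both ADDL arrays on both CAT-SKL+ADDL arrays and 1 was above. Over all named genes these shares were 23.8% and 24.5%. The median difference of the list was -0.15 (-0.18 to -0.04 over the alternatives, nearest to 0 with arrays centred on their median). Of its members 7 had an unadjusted p below 0.05 in limma, beside 3.32% of all named genes. The list had medians of -0.21 and -0.16 on the CAT-SKL+ADDL arrays, against 0.02 and -0.06 on the ADDL arrays. Cplx2, a complexin that clamps vesicle fusion, had -0.52 and -0.44 on the CAT-SKL+ADDL arrays, against 0.11 and -0.15 on the ADDL arrays (-0.47 ± 0.12, unadjusted p = 0.00519 in limma). Unc13a, which primes vesicles, had -0.65 and -0.61 on the CAT-SKL+ADDL arrays, against 0.03 and -0.25 on the ADDL arrays (-0.52 ± 0.16). Nrxn3, a neurexin that joins the synapse, had -0.21 and -0.17 on the CAT-SKL+ADDL arrays, against 0.16 and 0.03 on the ADDL arrays (-0.29 ± 0.10), and its other probe gave -0.09. In all 3 the groups did not overlap, which choosing them by smallest p favoured, and ADDL 1 was the higher of the ADDL arrays. Syn2 (-0.49), the calcium channel gene Cacna1a (-0.31) and Amph (-0.27) also had an unadjusted p below 0.05 in limma. On the CAT-SKL arrays Cplx2 had -0.46 and -0.35 and Unc13a had -0.78 and -0.48. Vamp2, a core gene of vesicle fusion, overlapped between the groups (0.04 ± 0.11).

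**Figure D4:**
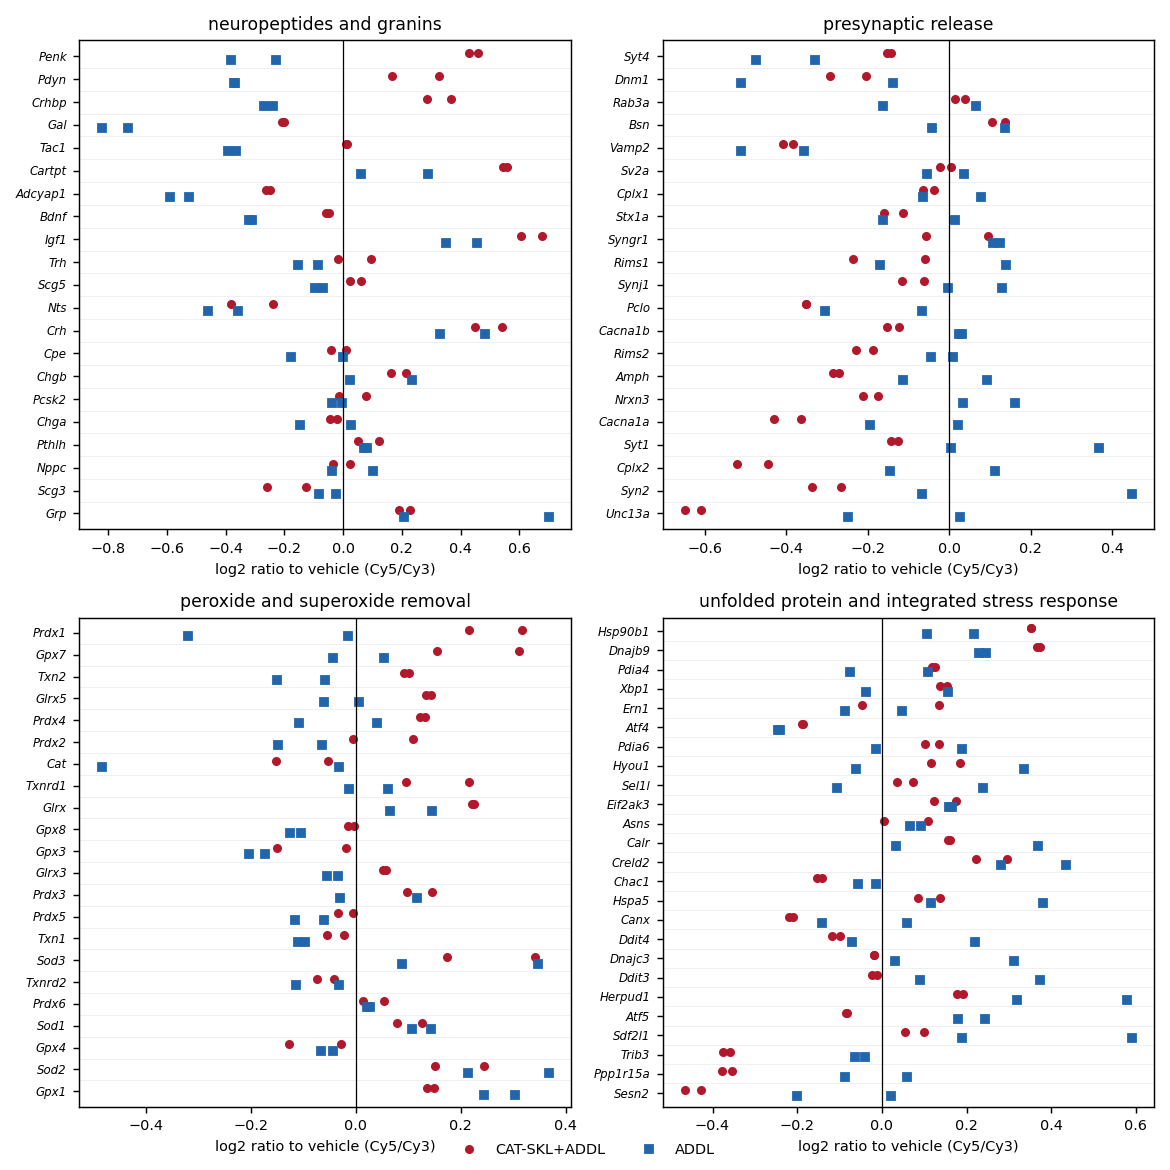
Log2 ratio to vehicle of members of 4 gene lists on the CAT-SKL+ADDL arrays (red circles) and the ADDL arrays (blue squares), ordered by their difference. Both circles lie to the right of both squares for 11 of 21 neuropeptide genes and 13 of 22 genes of peroxide removal. They lie to the left for 12 of the 21 presynaptic genes plotted and 11 of 25 stress response genes. Over all named genes the shares are 24.5% to the right and 23.8% to the left.

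Other neuronal lists lay close to 0 or changed sign with the scaling. Glutamate receptors and postsynaptic scaffold genes had a median difference of -0.04 over 27 genes, voltage-gated ion channels -0.03 over 25 and axon guidance genes -0.05 over 26, and with arrays centred on their median these were 0.02, 0.05 and 0.02. They had 9, 9 and 11 members below on both arrays and 5, 5 and 6 above, beside 23.8% and 24.5% of all named genes. Slit3, a repulsive guidance cue, had -0.28 and -0.21 on the CAT-SKL+ADDL arrays, against 0.02 and 0.16 on the ADDL arrays (-0.34 ± 0.10). The ephrin receptor gene Epha4 differed by -0.33 ± 0.11, but its other probe gave 0.07. Gria4, a glutamate receptor subunit gene, differed by 0.25 ± 0.10, and its other probe by -0.19.

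Tubulins and axon cytoskeleton genes had 15 of 23 members below both ADDL arrays on both CAT-SKL+ADDL arrays and 0 above. Over all named genes these shares were 23.8% and 24.5%. The median difference was -0.12, or 0.14 with arrays centred on their median. Wasl, which promotes actin branching, had -0.53 and -0.57 on the CAT-SKL+ADDL arrays, against 0.06 and -0.25 on the ADDL arrays (-0.45 ± 0.18). The alpha-tubulin gene Tuba1a had 0.63 and 0.58 on the CAT-SKL+ADDL arrays, against 0.71 and 0.82 on the ADDL arrays (-0.16 ± 0.17). It was above vehicle on all 4 arrays. Tubulin genes are near-identical in sequence, so their probes may read more than 1 of them.

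Genes of amyloid processing had a median difference of -0.04 over 23 genes (0.12 with arrays centred on their median). On both arrays 2 were above and 7 below, beside 24.5% and 23.8% of all named genes. App, the amyloid precursor, had -0.10 and -0.20 on the CAT-SKL+ADDL arrays, against -0.07 and -0.02 on the ADDL arrays (-0.10 ± 0.16, 95% interval -0.48 to 0.27), and was 0.14 with arrays centred on their median and 0.04 with Cy5 alone. Bace1, the beta-secretase, was not shown to differ (-0.07 ± 0.12). Cdk5, a kinase that phosphorylates tau, had -0.07 and -0.03 on the CAT-SKL+ADDL arrays, against -0.39 and -0.27 on the ADDL arrays (0.28 ± 0.11).

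Interferon response and antigen presentation genes had a median difference of -0.04 over 21 genes (0.0034 without CAT-SKL+ADDL 1 and 0.0035 without ADDL 2). On both arrays 3 were above and 7 below, beside 24.5% and 23.8% of all named genes. Members of the list differed in both directions. Isg20, an antiviral exonuclease, had -0.60 and -0.56 on the CAT-SKL+ADDL arrays, against -0.22 on each ADDL array (-0.37 ± 0.10). Stat2, a signal transducer of interferon, had -0.19 and -0.25 on the CAT-SKL+ADDL arrays, against 0.11 and 0.08 on the ADDL arrays (-0.31 ± 0.11). B2m, the light chain of MHC class I, had 0.61 and 0.66 on the CAT-SKL+ADDL arrays, against 0.28 and 0.26 on the ADDL arrays (0.37 ± 0.11). The groups did not overlap in any of the 3, which choosing them by smallest p favoured. Chemokines and cytokines had a median difference of 0.05 over 20 genes (-0.02 with arrays centred on their median), with 7 above and 3 below on both arrays, and the chemokine gene Ccl3, well above background on 1 ADDL array only, had 0.32 and 0.38 on the CAT-SKL+ADDL arrays, against 0.18 and -0.13 on the ADDL arrays (0.32 ± 0.17).

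Markers of cells other than neurons were detected, and in these whole-culture samples fewer cells of a type and less RNA per cell cannot be told apart. Of 16 tested oligodendrocyte lineage markers, 5 were above and 3 below on both arrays, beside 24.5% and 23.8% of all named genes. These markers had medians of 0.42 and 0.43 on the CAT-SKL+ADDL arrays, against 0.15 and 0.12 on the ADDL arrays. Their summed Cy5 signal was 8877 to 8909 on the CAT-SKL+ADDL arrays, against 6696 to 6828 on the ADDL arrays. The median of the gene differences was 0.07 and was -0.0045 without ADDL 1. Of the 16 differences, 10 were positive, and they ran from -0.15 to 0.84. The genes named next are among the higher members. Bcas1, a marker of newly formed oligodendrocytes, had 1.40 and 1.41 on the CAT-SKL+ADDL arrays, against 0.54 and 0.59 on the ADDL arrays (0.84 ± 0.34, 1.80-fold). The groups were far apart, while the CAT-SKL arrays gave 1.17 and 0.16, and the other Bcas1 probe gave 0.28. Cnp, a myelin enzyme, had 0.53 and 0.46 on the CAT-SKL+ADDL arrays, against -0.06 and 0.14 on the ADDL arrays (0.45 ± 0.18). The myelin gene Mbp had 0.83 and 0.89 on the CAT-SKL+ADDL arrays, against 0.41 and -0.29 on the ADDL arrays (0.80 ± 0.51). In a fit of these 4 arrays as 4 samples, Bcas1, Ucn and the unnamed probe passed (adjusted p = 0.0339 each in limma), but that fit counts the CAT-SKL+ADDL arrays separately. The part of these cells in the other differences was not tested.

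Of 16 tested microglia markers, 0 were above and 7 below on both arrays, beside 24.5% and 23.8% of all named genes. The median difference of the markers was -0.14 (-0.29 to -0.05 over the alternatives). They had medians of 0.06 and 0.03 on the CAT-SKL+ADDL arrays, against 0.21 and 0.09 on the ADDL arrays. Their summed Cy5 signal was 5689 to 6107 on the CAT-SKL+ADDL arrays, against 5930.0 to 6917 on the ADDL arrays. The defining markers Itgam and Ptprc were not well above background on any of the 4 arrays. Cx3cr1, the fractalkine receptor, had 0.25 on each CAT-SKL+ADDL array, against 0.78 and 0.35 on the ADDL arrays (-0.32 ± 0.24), and P2ry12, a purine receptor, had -0.07 and -0.19 on the CAT-SKL+ADDL arrays, against 0.07 and 0.04 on the ADDL arrays (-0.19 ± 0.09). ADDL 1 was the highest array for Cx3cr1, Trem2, Laptm5, Tyrobp and Fcer1g. Ctss, a lysosomal protease, was not well above background on the CAT-SKL+ADDL arrays, and no fold is given for it.

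Astrocyte markers were above vehicle in both groups, with medians of 0.47 and 0.45 on the CAT-SKL+ADDL arrays, against 0.30 and 0.58 on the ADDL arrays. Their median difference was 0.06 over 16 genes and -0.09 without ADDL 1. On both arrays 3 were above and 1 below, beside 24.5% and 23.8% of all named genes. Summed Cy5 signal of these markers was 25116 to 26005 on the CAT-SKL+ADDL arrays, against 21505 to 29197 on the ADDL arrays. Gfap, the astrocyte filament gene, had 0.44 and 0.37 on the CAT-SKL+ADDL arrays, against 0.16 and 0.78 on the ADDL arrays (-0.06 ± 0.28; 0.24 without ADDL 2). Its ADDL arrays lay on either side of the CAT-SKL+ADDL arrays. Slc1a2, the main glutamate transporter of astrocytes, was the member below, at 0.05 and 0.02 on the CAT-SKL+ADDL arrays, against 0.46 and 0.32 on the ADDL arrays (-0.35 ± 0.11), and its other probe gave -0.22. Vascular and fibroblast markers had a median difference of 0.06 over 17 genes (-0.03 with arrays centred on their median and -0.016 without ADDL 1), with 4 above and 3 below on both arrays.

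GABAergic markers had 11 of 21 members above both ADDL arrays on both CAT-SKL+ADDL arrays and 1 below, beside 24.5% and 23.8% of all named genes. These markers had a median difference of 0.05 (0.01 to 0.13 over the alternatives). Their summed Cy5 signal was 50671 to 50892 on the CAT-SKL+ADDL arrays, against 51490 to 55128 on the ADDL arrays, and so was lower. The member below was Calb2, the calcium-binding protein calretinin, with 0.03 and -0.03 on the CAT-SKL+ADDL arrays, against 0.21 and 0.68 on the ADDL arrays (-0.44 ± 0.31). Beside Calb1, the somatostatin relative Cort had 1.27 and 1.23 on the CAT-SKL+ADDL arrays, against 0.81 and 0.32 on the ADDL arrays (0.69 ± 0.21, 1.61-fold). Dlx5, a transcription factor of their development, had 0.45 and 0.36 on the CAT-SKL+ADDL arrays, against 0.11 and 0.12 on the ADDL arrays (0.29 ± 0.11). The GABA synthesis genes Gad1 (0.12 ± 0.18) and Gad2 (0.07 ± 0.11) and the vesicular transporter gene Slc32a1 (-0.02 ± 0.20) were not shown to differ. Glutamatergic markers (-0.05 over 10) and pan-neuronal markers (-0.08 over 15) had 1 and 3 members above and 3 and 8 below on both arrays, and with arrays centred on their median their medians were 0.01 and 0.14. Proliferation and progenitor genes had 7 of 21 above and 0 below, with a median difference of 0.05 (0.0056 to 0.13 over the alternatives).

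**Figure D5:**
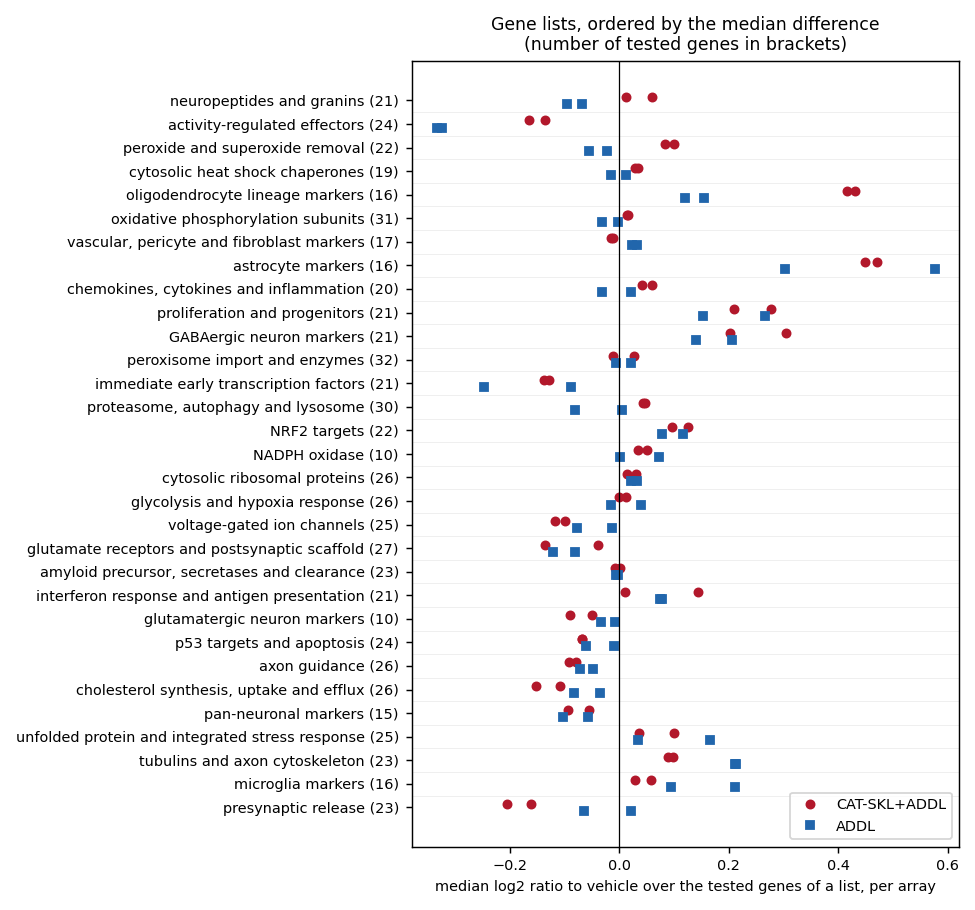
Median log2 ratio to vehicle over the tested members of each of 31 gene lists, per array, for CAT-SKL+ADDL (red circles) and ADDL (blue squares), ordered by the median of the gene differences. The widest gaps between the groups are at the oligodendrocyte lineage markers, the activity-regulated effectors and the presynaptic genes; 0 members of any list passed the threshold.

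Oxidative phosphorylation subunits had 14 of 31 members above and 5 below on both arrays (median 0.06, and 0.05 to 0.32 over 20 alternative settings). For this and the next lists, the shares over all named genes were 24.5% above and 23.8% below. Ndufa4 had -0.00069 and 0.10 on the CAT-SKL+ADDL arrays, against -0.16 and -0.24 on the ADDL arrays (0.24 ± 0.10). Cholesterol genes had 2 of 26 above and 13 below (median -0.08, or 0.10 with arrays centred on their median). Mvd, of the mevalonate pathway, had -0.28 and -0.35 on the CAT-SKL+ADDL arrays, against -0.07 and -0.03 on the ADDL arrays (-0.27 ± 0.09). The groups did not overlap for this gene, which choosing it by smallest p favoured. Glycolysis and hypoxia genes had 4 of 26 above and 7 below, with a median of -0.03 that was 0.17 with arrays centred on their median, 0.017 without ADDL 2 and 0.0027 with Cy5 alone. Vegfa, the vascular growth factor, differed by -0.32 ± 0.11, and its other probes by -0.60, -0.37 and -0.08. Proteasome, autophagy and lysosome genes had 10 of 30 above and 8 below (median 0.02, and 0.0048 to 0.23 over the alternatives), with the lysosomal membrane gene Lamp2 at 0.44 and 0.42 on the CAT-SKL+ADDL arrays, against -0.17 and 0.06 on the ADDL arrays (0.48 ± 0.14). Ribosomal protein genes had 4 of 26 above and 6 below, and their median of -0.0042 was 0.28 with arrays centred on their median and 0.0083 to 0.04 with no background subtraction, the deposited log ratios or Cy5 alone.

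CAT-SKL given before the oligomers was also set against CAT-SKL given after them, where both groups had the same agents for the same total time. No probe passed (0 of 25213, smallest adjusted p = 0.822 in limma), and 1406 (5.58%) had an unadjusted p below 0.05. Srxn1 (-0.11 ± 0.11), Calb1 (0.02 ± 0.15) and Oxr1 (0.09 ± 0.10) had ratios near those of the ADDL+CAT-SKL arrays, which were 0.18 and 0.22 for Srxn1. Septin7 was higher on the CAT-SKL+ADDL arrays than on the ADDL+CAT-SKL arrays, at 0.39 and 0.43 against -0.23 and -0.57 (0.81 ± 0.15, unadjusted p = 4.80e-04 in limma). Bcas1 had 1.40 and 1.41 on the CAT-SKL+ADDL arrays, against -0.08 and -0.41 on the ADDL+CAT-SKL arrays (1.65 ± 0.34). The oligodendrocyte list had a median of 0.42 and 0.43 on the CAT-SKL+ADDL arrays, against -0.01 and -0.06 on the ADDL+CAT-SKL arrays. Arc had -0.39 on each CAT-SKL+ADDL array, against 0.22 and 0.26 on the ADDL+CAT-SKL arrays (-0.63 ± 0.21, unadjusted p = 0.0155 in limma). This comparison shares the CAT-SKL+ADDL arrays with the one against ADDL, so the sets of values are not independent.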

How the data were processed

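RNA was hybridised to 8 Agilent arrays in Cy5 and Cy3, all on 1 slide (62976 spots per array). For every spot the deposited scanner files give a median intensity and a local background intensity in each channel. They also give log10 ratios, which the software of the scanner (Feature Extraction 11.5, per the file headers) had corrected for background and dye. Ratios in the deposited series table matched these log10 values to within 0.00500. Both sets of ratios served as alternatives. Whether all arrays shared 1 pool of vehicle RNA is not stated in the labels.

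Median intensities were background-corrected (limma 3.58.1, normexp, offset 50; R 4.3.3) and loess-normalised within arrays, giving control spots weight 0. Outlier spots (902 to 1262 per array) were dropped and the spots of a probe averaged; 0 spots were saturated. A probe was tested if at least 2 of 8 arrays had it well above background in Cy5 or Cy3, except 65 that lacked a value. Probes were named through the RefSeq table of GRCr8 (17998 of 30367), and the brightest probe stood for a gene. No array coordinates are given, since the arrays were designed on another build.

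Groups were compared with lmFit and eBayes over 7 samples (3 residual and 5.21 prior degrees of freedom), two-sided, with Benjamini-Hochberg adjustment over all probes at a threshold of 0.05. The functions were tested on simulated data. Named genes were the 12 largest passing differences per direction, filled by smallest p among probes with groups that did not overlap, up to 3 members with the smallest p per list, and Cat, Pex5, App, Fos, Arc, Hmox1 and Gfap. Not every list member so selected is described, and the other list members given values were chosen after their values were seen. A few list members are not reported here by name, and counts over lists include them. The genes, the 31 lists (676 of 749 genes tested) and the rules were chosen with earlier results of these data known. Precision is limited by having 2 arrays per group.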

Additional observations from a re-analysis of the deposited data

How the results depend on the processing

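Of 20 alternatives, 18 left 0 probes passing between CAT-SKL+ADDL and ADDL, and the smallest adjusted p in limma ran from 0.0163 to 1.00 over all 20. The count was 3 in a fit of these 4 arrays alone (Bcas1, Ucn and an unnamed probe). It was 0 to 3 when 1 array was left out, with 3 without CAT-SKL+ADDL 1 (Xpnpep2, Sfxn1 and an unnamed probe). Without ADDL 2 the count was 0 with a smallest adjusted p of 0.0740. With 8 separate samples it was 0 (smallest adjusted p 0.237, 2719 probes at an unadjusted p below 0.05), and with the replicate block added also 0 (smallest adjusted p 0.363, 2550 probes). Deviations of same-numbered arrays correlated between -0.191 and 0.0678 over probes. Correlations with the CAT-SKL+ADDL pair (-0.0042 to 0.031) could not show pairing, since that pair differed by no more than spot noise. Whether same-numbered arrays shared a preparation cannot be decided from these values. Against ADDL+CAT-SKL the count was 0 to 4 when 1 array was left out, with 3 without CAT-SKL+ADDL 1 (the same probes as above) and 4 without either CAT-SKL array (Cdhr1, Bcas1, Cdkn1c and an unnamed probe). It was 5 with arrays centred on their median (Bcas1, Mbp, Cdkn1c, Mgp and an unnamed probe).

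Single genes kept their direction and side of the threshold in 2333 of their values under an alternative; 18 values in 17 genes turned. With median centring in place of loess, Hspa4 was 0.090, Mapt 0.079, Elavl4 0.067, Sdha 0.071, Hk1 0.026, Rpl7 0.18, Map1b 0.042 and App 0.14. With Cy5 alone, Xpnpep2 was 0.0078, Ncf1 0.088, Cdkn1a 0.019, App 0.042 and Arc -0.011. Leaving out 1 array at a time, Abcd3 ran from -0.16 (without ADDL 1) to 1.22, Cat from -0.072 (without ADDL 1) to 0.38, Pex5 from -0.049 (without ADDL 2) to 0.14, Hmox1 from -0.21 to 0.14 (without ADDL 2) and Gfap from -0.37 to 0.24 (without ADDL 2). The cause was not tested. List medians moved by less than the SD between the ADDL medians of a list in 494 of their values and by more in 126, and 19 of 31 lists changed sign under at least 1 alternative. The 7-sample fit rests on the spread of 3 groups of 2 arrays, and differences under about 0.25 on the log2 scale lay within the error of a typical probe.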

Other observations

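Some genes outside the lists also differed by at least 1.5-fold, and they are given as values chosen after they were seen. All 4 given here were higher, whereas of the 63 probes past 1.5-fold, 15 were higher and 48 lower. Cdkn1c, a cell cycle inhibitor gene, had log2 ratios of 1.26 and 1.23 on the CAT-SKL+ADDL arrays, against 0.52 and 0.48 on the ADDL arrays (0.74 ± 0.25). The CAT-SKL arrays gave 1.11 and 0.35. Adamts1, an extracellular protease gene, had 0.19 and 0.15 on the CAT-SKL+ADDL arrays, against -0.46 and -0.44 on the ADDL arrays (0.62 ± 0.22). Mustn1, a musculoskeletal gene, had -0.05 and -0.07 on the CAT-SKL+ADDL arrays, against -0.72 and -0.80 on the ADDL arrays (0.70 ± 0.31), and its other probe gave 0.63. Emp1, a membrane protein gene, had -0.18 and -0.16 on the CAT-SKL+ADDL arrays, against -0.81 and -0.89 on the ADDL arrays (0.68 ± 0.38). In these 4 genes the groups did not overlap, which choosing them for large differences favoured, and 0 passed the threshold. For Adamts1, Mustn1 and Emp1 the CAT-SKL arrays lay on either side of vehicle, at -0.27 and 0.39, -0.47 and 0.50, and -0.71 and 0.52.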
